A study of Homo sapiens with 9 samples.

Results

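The 8 genes described here, KEAP1, NFE2L2, CUL3, MAFF, MAFG, MAFK, BACH1 and OSGIN1, encode the regulators and partners of the KEAP1-NRF2 pathway. They were chosen by name, as the rows of the gene count table whose Ensembl identifier maps to these symbols, and are 8 of the 61487 genes in that table. RNA was sequenced from 9 libraries of OVCAR4, an established human line from a high-grade serous ovarian carcinoma, in 3 groups of 3. The PRMT5i group held Pt-resistant OVCAR4 cells given the PRMT5 inhibitor EPZ015666 at 5 uM for 5 days, the Pt-resistant group held the same resistant derivative given DMSO, and the naive group held the parental line given DMSO. All 9 libraries carry the genotype label WT. The resistant line was derived under continuous platinum, and no naive cells with the inhibitor were sequenced in these libraries, so PRMT5i and naive cells differ in both resistance and treatment. Each replicate was a well of a plate, and p-values here describe variation among wells that may be only technical.

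NRF2, the product of NFE2L2, is a transcription factor of the cap'n'collar family that drives genes of glutathione and thioredoxin metabolism, NADPH supply and detoxification. In unstressed cells KEAP1 holds NRF2 and presents it to the ubiquitin ligase built on the scaffold CUL3, and NRF2 is degraded. Electrophiles and oxidants modify cysteines of KEAP1, NRF2 then accumulates, pairs with a small MAF protein (MAFF, MAFG or MAFK) and binds antioxidant response elements. BACH1 pairs with the same small MAF proteins and represses many of those elements, and OSGIN1 is a stress-induced gene that NRF2 activates. NRF2 itself is controlled largely at the level of the protein, and a count of mRNA does not read that control. The study examined KEAP1 as a possible regulator of the PRMT5 protein, and the comparisons here ask how the mRNA of this regulatory circuit differed between naive, Pt-resistant and PRMT5 inhibitor-treated cells.

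A window around a start site is shown for OSGIN1, MAFF and KEAP1. OSGIN1 and MAFF had the largest changes in Pt-resistant against naive cells, and KEAP1 is the sensor of the pathway. Each window runs from 250 bases before to 50 bases after a RefSeq start site in GRCh38.p14. Windows were found for 7 of the 8 genes (13 windows), all but MAFK. For MAFF and KEAP1 the window that held matches is the one shown. Both strands were searched for the antioxidant response element core (TGACNNNGC), its extended form (TGACTCAGC), the AP-1 site (TGACTCA) and the cyclic AMP response element (TGACGTCA). The extended form contains both the AP-1 site and a core. Capitals mark matches, and a match is a string of letters, not evidence of binding.

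OSGIN1, chr16:83952990-83953289, plus strand: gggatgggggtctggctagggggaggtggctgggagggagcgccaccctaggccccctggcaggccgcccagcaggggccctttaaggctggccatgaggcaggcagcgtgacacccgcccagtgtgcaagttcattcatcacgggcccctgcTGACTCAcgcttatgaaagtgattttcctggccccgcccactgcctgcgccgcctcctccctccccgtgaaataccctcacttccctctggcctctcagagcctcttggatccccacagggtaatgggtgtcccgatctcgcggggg

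MAFF, chr22:38201744-38202043, plus strand: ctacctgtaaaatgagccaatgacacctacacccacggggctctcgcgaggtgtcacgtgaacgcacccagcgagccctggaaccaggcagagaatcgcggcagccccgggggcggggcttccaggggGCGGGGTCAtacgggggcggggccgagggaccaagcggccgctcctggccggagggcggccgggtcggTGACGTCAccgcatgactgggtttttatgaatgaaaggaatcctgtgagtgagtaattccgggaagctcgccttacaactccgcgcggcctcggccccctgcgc

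KEAP1, chr19:10502722-10503021, minus strand: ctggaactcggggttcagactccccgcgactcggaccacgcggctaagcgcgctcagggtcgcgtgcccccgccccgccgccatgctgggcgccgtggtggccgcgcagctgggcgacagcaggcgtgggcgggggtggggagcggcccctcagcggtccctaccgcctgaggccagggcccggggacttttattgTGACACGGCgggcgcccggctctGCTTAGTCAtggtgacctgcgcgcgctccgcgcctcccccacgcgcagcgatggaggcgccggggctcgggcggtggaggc

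The OSGIN1 window held an AP-1 site 97 bases before the start. The MAFF window shown held a core match on its other strand 122 bases before the start and a cyclic AMP response element 54 bases before it. The KEAP1 window shown held 2 core matches, 54 and 31 bases before the start, on opposite strands. MAFF and KEAP1 each had another window, at chr22:38202770-38203069 and chr19:10503307-10503606, and these held no match. A core was present in 13.3% of 35116 windows of all genes and in 2 of the 13 windows of these genes. The AP-1 site was in 4.95% of all windows, and besides OSGIN1 the BACH1 window at chr21:29298672-29298971 held it. The extended form was in 0.561% of all windows and in 0 of the 13, and the cyclic AMP response element was in 1.85% of all windows. No match in a window says only that these letters are not there.

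The 9 libraries held 14320929 to 19114811 counts each, and all within-group pairs differed by more than counting noise (chi-square per degree of freedom, 5.41 to 11.9). Of the 8 epithelial and serous markers, 7 were above 1 CPM (counts scaled to a common library size) in every group, and WT1 had 40 counts in all 9 libraries. Levels differed between groups. At an edgeR adjusted p under 0.05, 1 of these 7 was higher and 5 were lower in Pt-resistant than in naive cells. The shares over all tested genes were 29.8% and 29.4%. CDH1 was at 50.6 CPM in PRMT5i, 74.2 CPM in Pt-resistant and 167 CPM in naive cells, and EPCAM at 247, 330 and 519 CPM. Immune markers summed to 5.96 to 7.87 CPM in PRMT5i, 0.781 to 1.04 CPM in Pt-resistant and 3.3 to 4.89 CPM in naive cells. The fibroblast and endothelial markers summed to 94.6 to 110 CPM in PRMT5i, 127 to 133 CPM in Pt-resistant and 143 to 161 CPM in naive cells. Most of this came from the endothelial genes PECAM1 and CDH5, whose orders differed. PECAM1 was at 43.7 CPM in PRMT5i, 57.4 CPM in Pt-resistant and 95.4 CPM in naive cells, and CDH5 at 46.7, 67.9 and 48.4 CPM. PRMT5 itself, the target of the inhibitor, stood at 117 ± 11 CPM in PRMT5i, 117 ± 10 CPM in Pt-resistant and 121 ± 1.5 CPM in naive cells, and none of its 3 comparisons passed. Mitochondrially encoded mRNA took 6.26 to 8.31% of counts in PRMT5i, 4.45 to 5.19% in Pt-resistant and 5.97 to 7.82% in naive cells, so the Pt-resistant libraries were the lowest, and the part of this difference in the results was not tested.

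All 8 genes passed the filter on low counts. In Pt-resistant cells against naive cells, 5 of the 8 rose (NFE2L2, MAFF, MAFG, MAFK and OSGIN1) and 0 fell by edgeR's quasi-likelihood test at an adjusted p under 0.05. No gene of the 8 was lower at an unadjusted p under 0.05, and DESeq2 and limma-voom also called 0. Across all 14630 genes tested, 29.8% rose and 29.4% fell in that comparison (59.1% in either direction). With the PRMT5 inhibitor, 6 of the 8 fell (the same 5 and BACH1) and 0 rose, a count of 0 that was also obtained at an unadjusted p under 0.05 and by DESeq2 and limma-voom, against 30.5% of all genes that fell and 31.9% that rose (62.4% in either direction). In PRMT5i against naive cells 3 were higher (MAFF, MAFK, OSGIN1) and 2 were lower (CUL3, BACH1), where 32.2% of all genes were higher and 31.2% were lower (63.4% in either direction). The libraries of the compared groups did not overlap for 5 of the 8 genes in Pt-resistant against naive cells, for 6 with the inhibitor and for 4 in PRMT5i against naive cells, where 62.5%, 66.5% and 66.4% of all tested genes did not overlap. The comparisons share groups, so a gene high in Pt-resistant cells counts in the first and the second alike. The libraries are bulk RNA, so a lower level in all cells and a loss from some cells cannot be told apart.

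**Figure D1:**
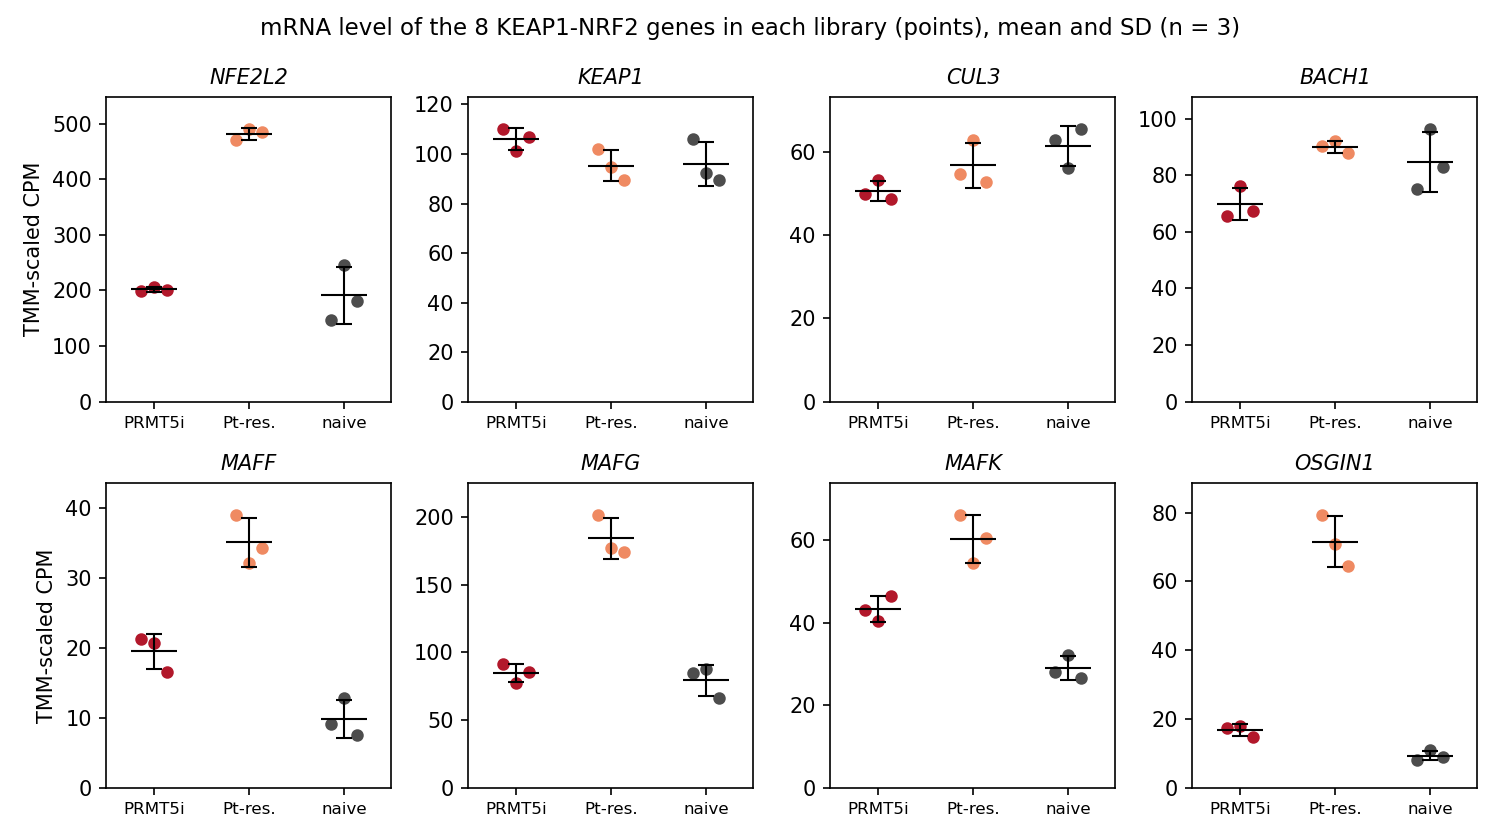
Level of each of the 8 genes in each library, in TMM-scaled CPM on axes that start at 0. Points are libraries, and bars give the mean and SD (n = 3) in PRMT5i, Pt-resistant and naive cells. NFE2L2 sits at 470 to 490 CPM in the Pt-resistant libraries, above the other 6, while the KEAP1 groups overlap.

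In the levels by library, the Pt-resistant libraries were on top without overlap for NFE2L2, the small MAF genes and OSGIN1. KEAP1 passed in none of the 3 comparisons, CUL3 in 1 and BACH1 in 2.

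NFE2L2, which encodes NRF2, rose in Pt-resistant cells and fell with the inhibitor to the range of the naive libraries. Its level was 199, 207 and 200 CPM in the PRMT5i libraries, 470, 490 and 485 CPM in the Pt-resistant libraries, and 146, 246 and 181 CPM in the naive libraries. The Pt-resistant libraries were the highest without overlap, and the naive libraries spanned the values seen with the inhibitor. NFE2L2 was 2.38-fold lower in PRMT5i than in Pt-resistant cells (log2 fold change -1.25 ± 0.12, SE; edgeR adjusted p 2.22e-09). It was 2.53-fold higher in Pt-resistant than in naive cells (1.34 ± 0.12, adjusted p 8.35e-10 by edgeR). Between PRMT5i and naive cells the log2 difference was 0.09 (95% interval -0.15 to 0.32; edgeR adjusted p 0.533). Naive replicate 2 was the highest of its group, and without it the difference was 0.29 and passed (edgeR adjusted p 0.00706). AGPS, a gene on the opposite strand that shares 54 exon bases with NFE2L2, stood at 202 ± 11 CPM in PRMT5i, 247 ± 19 CPM in Pt-resistant and 109 ± 6.8 CPM in naive cells. The sources used here do not give the strand used in counting, so reads from the shared bases cannot be assigned. AC019080.1 shares 1054 exon bases with NFE2L2 on the same strand and was at 1.02 ± 0.34 CPM in PRMT5i, 1.23 ± 0.24 CPM in Pt-resistant and 0.953 ± 0.72 CPM in naive cells.

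KEAP1, the sensor and substrate adaptor, did not pass in any of the 3 comparisons. It was at 110, 101 and 107 CPM in PRMT5i, 102, 94.7 and 89.3 CPM in Pt-resistant and 106, 92.5 and 89.5 CPM in naive libraries, and the groups overlapped. Its log2 fold change was 0.15 with the inhibitor (95% interval -0.02 to 0.32) and -0.01 in Pt-resistant against naive cells (-0.18 to 0.16). Changes beyond these intervals were not detected at this depth and spread, which is not evidence of equal levels. Without Pt-resistant replicate 1 the first difference was 0.20, with an edgeR adjusted p of 0.049. KEAP1 in PRMT5i against naive cells differed by 0.14 (-0.03 to 0.31), and by 0.22 without naive replicate 1, with an edgeR adjusted p of 0.0309.

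CUL3, the scaffold of the ligase, was at 49.9, 53.4 and 48.8 CPM in PRMT5i, 54.7, 63 and 52.7 CPM in Pt-resistant and 62.8, 56.2 and 65.5 CPM in naive libraries. The Pt-resistant libraries overlapped both other groups, while PRMT5i lay below naive. CUL3 was 1.21-fold lower in PRMT5i than in naive cells (log2 -0.28 ± 0.09, edgeR adjusted p 0.00769). The 2 other differences did not pass, at -0.16 ± 0.09 with the inhibitor and -0.12 ± 0.09 in Pt-resistant against naive cells.

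Among the small MAF genes, whose proteins lack a transactivation domain and dimerise with NRF2 or BACH1, all 3 rose in Pt-resistant cells and fell with the inhibitor. MAFF, the least abundant of them, was at 21.3, 20.7 and 16.6 CPM in PRMT5i, 39, 32.2 and 34.3 CPM in Pt-resistant and 9.2, 12.9 and 7.62 CPM in naive libraries. The 3 groups were apart, with PRMT5i in the middle. MAFF was 1.8-fold lower in PRMT5i than in Pt-resistant cells (log2 -0.85 ± 0.13, edgeR adjusted p 4.24e-06), 3.57-fold higher in Pt-resistant than in naive cells (1.84 ± 0.14, 7.98e-11) and 1.98-fold higher in PRMT5i than in naive cells (0.99 ± 0.15, 2.64e-06).

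MAFG was at 91.4, 77.6 and 85.4 CPM in PRMT5i, 201, 177 and 174 CPM in Pt-resistant and 84.5, 87.6 and 66.3 CPM in naive libraries. PRMT5i and naive libraries overlapped, and Pt-resistant libraries lay above both. MAFG was 2.17-fold lower in PRMT5i than in Pt-resistant cells (log2 -1.12 ± 0.10, edgeR adjusted p 5.9e-10) and 2.32-fold higher in Pt-resistant than in naive cells (1.21 ± 0.10, 1.7e-10). Between PRMT5i and naive cells its difference was 0.09 (95% interval -0.11 to 0.29). SIRT7 shares 105 exon bases with MAFG on the same strand, where reads over both genes are dropped by the counting, and was at 60.5 CPM in PRMT5i, 53.3 CPM in Pt-resistant and 31 CPM in naive cells.

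MAFK was at 43.1, 40.4 and 46.6 CPM in PRMT5i, 66, 54.5 and 60.5 CPM in Pt-resistant and 28, 32.3 and 26.7 CPM in naive libraries. The groups were apart, again with PRMT5i between the others. MAFK was 1.39-fold lower in PRMT5i than in Pt-resistant cells (log2 -0.47 ± 0.09, edgeR adjusted p 0.000101), 2.08-fold higher in Pt-resistant than in naive cells (1.06 ± 0.10, 1.55e-09) and 1.5-fold higher in PRMT5i than in naive cells (0.58 ± 0.10, 1.35e-05). TMEM184A overlaps MAFK by 809 exon bases on the other strand, and its level was 16 ± 0.57 CPM in PRMT5i, 38 ± 4 CPM in Pt-resistant and 43.3 ± 2 CPM in naive cells, an order that differs from that of MAFK.

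BACH1, the repressor, was at 65.6, 76.2 and 67.5 CPM in PRMT5i, 90.2, 92.2 and 88 CPM in Pt-resistant and 75.3, 96.3 and 82.8 CPM in naive libraries. Of the 6 genes that fell with the inhibitor, BACH1 alone had no called rise in Pt-resistant against naive cells. The fall was 1.29-fold (log2 -0.37 ± 0.09, edgeR adjusted p 0.000838), and Pt-resistant against naive cells gave 0.09 (95% interval -0.09 to 0.27). BACH1 was 1.22-fold lower in PRMT5i than in naive cells (-0.28 ± 0.09, edgeR adjusted p 0.00806), with groups that overlap. That call was lost without naive replicate 2 (-0.20, edgeR adjusted p 0.0541).

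OSGIN1, an oxidative stress-induced growth inhibitor, had the largest log2 fold change of the 8 genes in Pt-resistant against naive cells and with the inhibitor. It was at 17.5, 18 and 14.9 CPM in PRMT5i, 79.2, 70.9 and 64.5 CPM in Pt-resistant and 8.24, 10.9 and 9.07 CPM in naive libraries. All 3 groups were apart. OSGIN1 was 4.26-fold lower in PRMT5i than in Pt-resistant cells (log2 -2.09 ± 0.11, edgeR adjusted p 8.59e-14) and 7.64-fold higher in Pt-resistant than in naive cells (2.93 ± 0.11, 5.36e-16). It was 1.79-fold higher in PRMT5i than in naive cells (0.84 ± 0.12, edgeR adjusted p 2.3e-06). Of all tested genes, 97.8% changed less in Pt-resistant against naive cells and 96.3% changed less with the inhibitor. AC009119.2, which was not analysed here, shares 481 exon bases with OSGIN1 on the same strand.

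**Figure D2:**
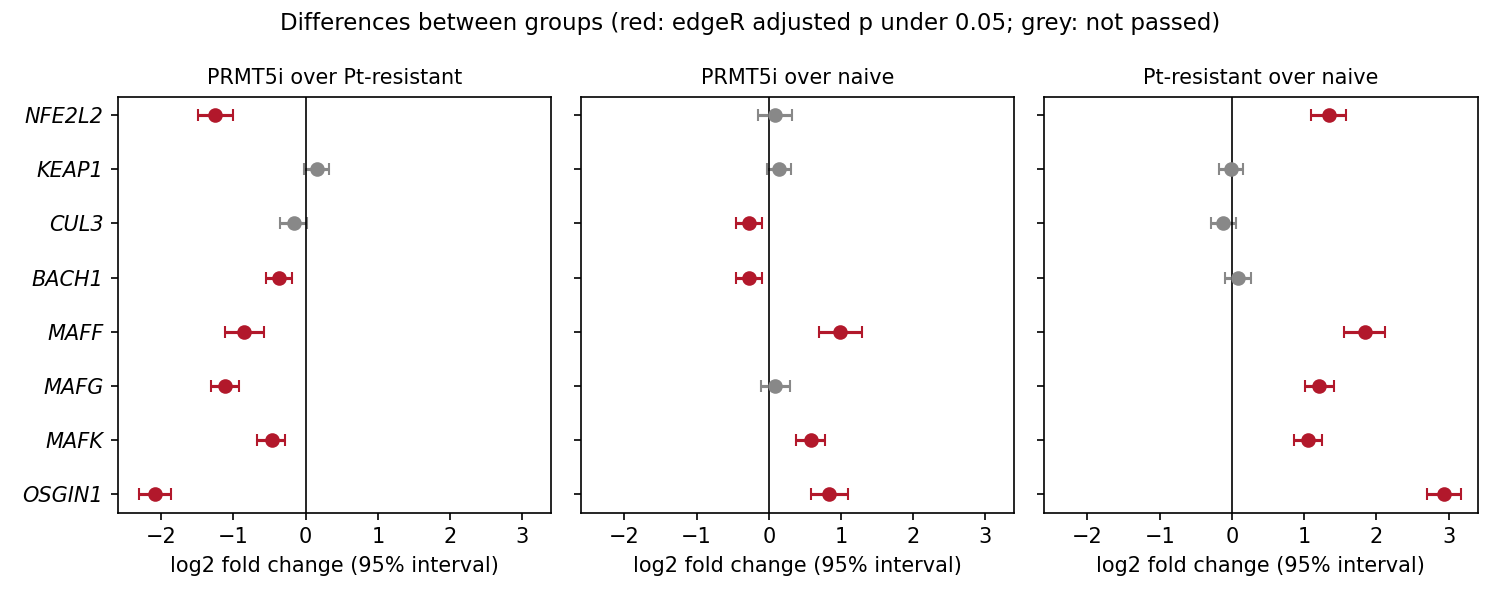
Log2 fold change with its 95% interval for each gene, in PRMT5i over Pt-resistant, PRMT5i over naive and Pt-resistant over naive cells (n = 3 per group). Red points passed an edgeR adjusted p of 0.05 and grey ones did not. OSGIN1 lies farthest from 0 in the outer panels, at -2.09 and 2.93.

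The plot of log2 fold changes places the 5 genes higher in Pt-resistant than in naive cells to the right of 0, where the changes ran from 1.06 for MAFK to 2.93 for OSGIN1. The median absolute log2 fold change of all tested genes was 0.39 in Pt-resistant against naive cells and 0.43 with the inhibitor. In Pt-resistant against naive cells, MAFF changed more than 94.1% of tested genes, NFE2L2 more than 89.9%, MAFG more than 88% and MAFK more than 85.1%. With the inhibitor these shares were 76.3% for MAFF, 87.6% for NFE2L2, 84.8% for MAFG and 53.8% for MAFK, and 44.6% for BACH1.

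Ratios of counts within a library do not depend on how libraries are scaled. NFE2L2 counts per KEAP1 count were 1.82, 2.05 and 1.87 in PRMT5i, 4.6, 5.18 and 5.43 in Pt-resistant and 1.37, 2.66 and 2.02 in naive libraries. The ratio was highest in Pt-resistant libraries without overlap, and PRMT5i lay within the naive range. NFE2L2 per BACH1 count was 3.04, 2.72 and 2.96 in PRMT5i, 5.21, 5.31 and 5.51 in Pt-resistant and 1.93, 2.55 and 2.18 in naive libraries, so that PRMT5i stayed above naive. NFE2L2 per CUL3 count was 4, 3.88 and 4.1 in PRMT5i, 8.58, 7.78 and 9.22 in Pt-resistant and 2.32, 4.38 and 2.76 in naive libraries. Exact two-sided permutation tests of the log2 ratios cannot go below p = 0.1 with 3 against 3, and this was reached for every pair of groups that did not overlap (adjusted over 15 comparisons, 0.136).

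**Figure D3:**
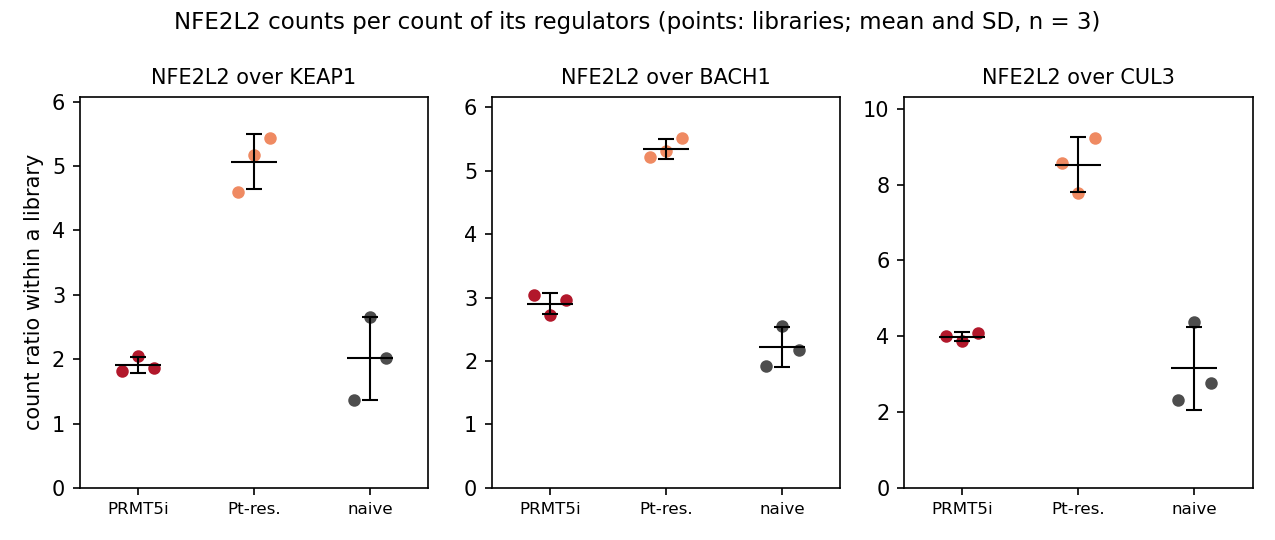
NFE2L2 counts divided by KEAP1, BACH1 or CUL3 counts of the same library, in PRMT5i, Pt-resistant and naive cells. Points are libraries, and bars give the mean and SD (n = 3). All 3 Pt-resistant libraries lie above the other 6 in each panel, for example at 4.6 to 5.43 per KEAP1 count.

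Since counts grow with transcript length, levels were set between genes only per kilobase of exon. The lengths are the union of all exons of a gene in GENCODE 29. Bases shared with a counted gene of the same strand, such as 1054 for NFE2L2 and 105 for MAFG, stay in these lengths. Reads over them are dropped, so such levels may read low. The transcripts in these cells may also be shorter, so orders between genes and shares of the small MAF genes are approximate. In PRMT5i cells the order in CPM per kb was NFE2L2 (33.8 ± 0.73), KEAP1 (28.2 ± 1.2), MAFG (16.2 ± 1.3), MAFK (9.73 ± 0.69), BACH1 (9.04 ± 0.73), OSGIN1 (4.86 ± 0.48), CUL3 (4.41 ± 0.21) and MAFF (3.47 ± 0.46). The order changed in Pt-resistant cells, to NFE2L2 (80.6 ± 1.8), MAFG (35.2 ± 2.8), KEAP1 (25.4 ± 1.7), OSGIN1 (20.7 ± 2.1), MAFK (13.5 ± 1.3), BACH1 (11.7 ± 0.27), MAFF (6.27 ± 0.62) and CUL3 (4.94 ± 0.47). In naive cells it was NFE2L2 (31.9 ± 8.5), KEAP1 (25.5 ± 2.3), MAFG (15.2 ± 2.2), BACH1 (11 ± 1.4), MAFK (6.51 ± 0.66), CUL3 (5.34 ± 0.42), OSGIN1 (2.71 ± 0.39) and MAFF (1.76 ± 0.48). OSGIN1 thus stood above MAFK and BACH1 in Pt-resistant cells and below both in the other groups. Neighbours in these orders whose libraries overlapped were MAFK and BACH1 and OSGIN1 and CUL3 in PRMT5i cells, and NFE2L2 and KEAP1 in naive cells.

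The make-up of the small MAF pool differed too. The 3 genes together gave 29.4 ± 1.7 CPM per kb in PRMT5i, 55.1 ± 4.6 in Pt-resistant and 23.5 ± 3.2 in naive cells. MAFG was the largest part, with 55.1 ± 1.4% in PRMT5i, 64 ± 1.3% in Pt-resistant and 64.7 ± 2.1% in naive cells. MAFK took 33.1 ± 1.9%, 24.6 ± 1% and 27.8 ± 1.9% in PRMT5i, Pt-resistant and naive cells, and MAFF took 11.8 ± 1.8%, 11.4 ± 0.27% and 7.42 ± 1.1%. PRMT5i libraries had the lowest MAFG share and the highest MAFK share. In counts, MAFK per MAFG was 0.472 to 0.545 in PRMT5i and 0.308 to 0.348 in Pt-resistant libraries, and 0.332 to 0.403 in naive libraries. The PRMT5i libraries were apart from each of the other groups (exact permutation p 0.1, the smallest possible), while Pt-resistant and naive libraries overlapped (exact permutation p 0.2).

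**Figure D4:**
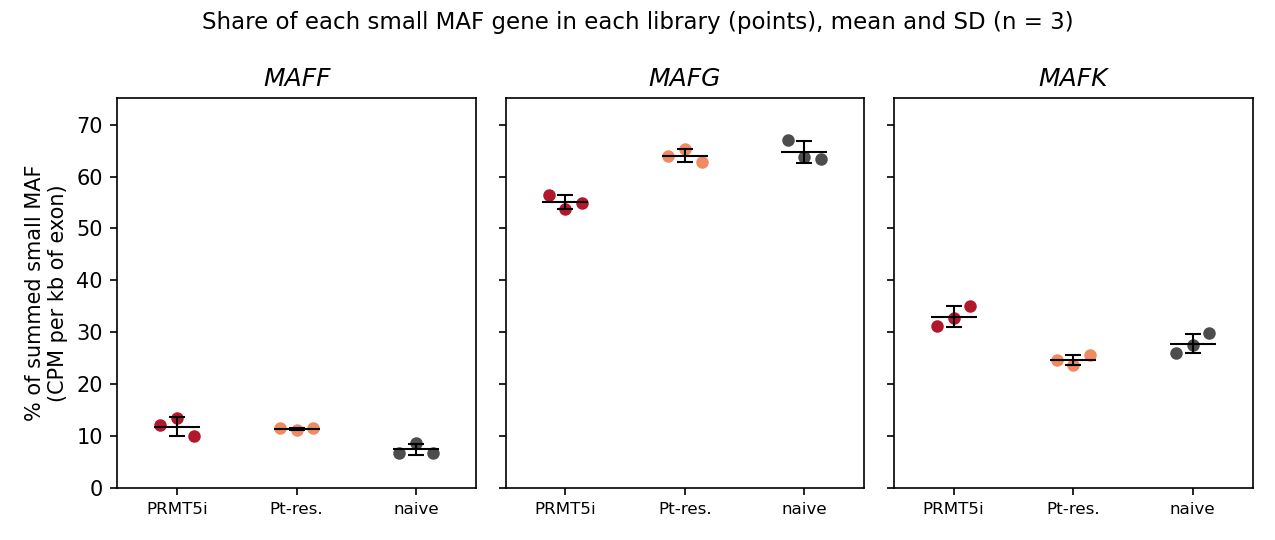
Share of MAFF, MAFG and MAFK in their summed level, as a percentage of CPM per kb of exon, in PRMT5i, Pt-resistant and naive cells. Points are libraries, and bars give the mean and SD (n = 3). MAFG takes 55.1% of the pool in PRMT5i and 64% in Pt-resistant cells.

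In the plot of small MAF shares the 3 panels sum to the whole pool in each library. The MAFF shares of PRMT5i and Pt-resistant libraries overlapped, at 9.91 to 13.4% in PRMT5i and 11.1 to 11.5% in Pt-resistant libraries.

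To see which genes lay nearest, each gene was centred on its mean log2 CPM over the 9 libraries. The root mean square difference over the libraries was taken to each of 10604 genes with at least 5 CPM. NFE2L2 was near to NEDD4 (0.13) and LARP6 (0.15). MAFG was near to LARP6 (0.10) and SGTB (0.11), and MAFF to BTG1 (0.15), FAM219A (0.19) and CTH (0.20). The genes near to OSGIN1 were TMCC3 at 0.19 and GRIP1 at 0.26. Among pairs of the 8 genes the smallest distances were CUL3 with BACH1 (0.17), KEAP1 with CUL3 (0.22) and NFE2L2 with MAFG (0.22), and the largest were OSGIN1 with KEAP1 and with CUL3 (1.26 each). Distances were not scaled to how much a gene varied, so genes that varied little lie close whatever their pattern. The root mean square of the centred profile was 0.11 for KEAP1, 0.14 for CUL3 and 0.19 for BACH1. For NFE2L2 it was 0.65 and for MAFG 0.57. These distances describe 9 libraries in 3 groups and carry no test.

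Genes that share the degradation route or partner with KEAP1 did not move as a block. Of 16 such genes 15 were tested. In PRMT5i against Pt-resistant cells 0 rose (0 at an unadjusted p under 0.05, 0 by DESeq2 and by limma-voom, 1 without Pt-resistant replicate 2) and 5 fell, with a median log2 fold change of -0.09. In Pt-resistant against naive cells 3 rose and 4 fell (median -0.06), and in PRMT5i against naive cells 3 were higher and 7 lower (median -0.12). The medians over all tested genes were 0.01, 0.01 and 0.00 for Pt-resistant against naive, PRMT5i against Pt-resistant and PRMT5i against naive cells. Over all tested genes, 31.9% rose and 30.5% fell with the inhibitor, and 29.8% rose and 29.4% fell in Pt-resistant against naive cells. In PRMT5i against naive cells 32.2% of them were higher and 31.2% lower. SQSTM1, which encodes p62, an autophagy receptor that binds KEAP1, was at 329 ± 9.4 CPM in PRMT5i, 946 ± 78 CPM in Pt-resistant and 254 ± 19 CPM in naive cells. Its log2 fold change was -1.52 ± 0.08 with the inhibitor and 1.90 ± 0.08 in Pt-resistant against naive cells. AMER1, another KEAP1 partner, fell by 0.44 on the log2 scale with the inhibitor and by 0.76 in Pt-resistant against naive cells. TRIM21, a ubiquitin ligase that acts on p62, rose by 0.90 in Pt-resistant against naive cells, with 6.62 ± 1 CPM in Pt-resistant and 3.55 ± 0.25 CPM in naive cells. NEDD8 had 0 counts in all 9 libraries and was not tested. Since the counting drops reads that map to several places or to more than 1 gene, this does not show that NEDD8 is silent.

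Relatives of NRF2 moved in different directions. Of 8 cap'n'collar and large MAF genes 5 were tested, with 2 higher and 2 lower in PRMT5i against Pt-resistant cells, 1 higher (2 without naive replicate 2) and 1 lower in Pt-resistant against naive cells, and 1 higher and 0 lower in PRMT5i against naive cells. For this last 0 the count was 0 also at an unadjusted p under 0.05 and by DESeq2 and limma-voom. Of all tested genes, 31.9% rose and 30.5% fell with the inhibitor, and 29.8% rose and 29.4% fell in Pt-resistant against naive cells. The shares in PRMT5i against naive cells were 32.2% higher and 31.2% lower. NFE2L1, which encodes NRF1, an activator of proteasome genes, was at 305 ± 42 CPM in PRMT5i, 558 ± 14 CPM in Pt-resistant and 317 ± 10 CPM in naive cells, a log2 fold change of -0.87 ± 0.09 with the inhibitor and 0.82 ± 0.09 in Pt-resistant against naive cells. NFE2L3 was at 152 ± 6 CPM in PRMT5i, 90.3 ± 1.5 CPM in Pt-resistant and 80.4 ± 8.1 CPM in naive cells. It rose by 0.75 with the inhibitor, the opposite direction from NFE2L2.

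Of 8 coactivators and repressors of NRF2, 0 rose and 3 fell with the inhibitor by edgeR, where 1 was higher at an unadjusted p under 0.05 and 0 were called by DESeq2 or limma-voom. Without Pt-resistant replicate 1 there was 1 that rose, and without PRMT5i replicate 1 there were 2. CREBBP and EP300, the acetyltransferase pair, fell by 0.71 and 0.60 on the log2 scale. In Pt-resistant against naive cells 2 rose and 3 fell, and NCOA3, a coactivator, fell by 0.98. The 2 that rose became 0 without naive replicate 3 or Pt-resistant replicate 2, and 1 without naive replicate 2 or Pt-resistant replicate 1. In PRMT5i against naive cells 1 was higher and 5 were lower (median -0.44), where 32.2% of all tested genes were higher and 31.2% lower. Of all tested genes, 31.9% rose and 30.5% fell with the inhibitor, and 29.8% rose and 29.4% fell in Pt-resistant against naive cells.

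Of 34 target genes of NRF2 with 32 tested, 22 rose and 6 fell in Pt-resistant against naive cells (median log2 0.77). With the inhibitor 9 rose and 16 fell (median -0.20), and in PRMT5i against naive cells 25 were higher and 4 lower (median 0.55). The 6 that fell were 3 without naive replicate 1, and the 4 lower were 2 without PRMT5i replicate 2 or replicate 3. As a background, edgeR called 29.8% of the whole tested set higher and 29.4% lower between Pt-resistant and naive libraries. These shares were 31.9% and 30.5% for PRMT5i against Pt-resistant libraries, and 32.2% and 31.2% for PRMT5i against naive libraries. SLC7A11, the cystine transporter, was at 186 ± 17 CPM in PRMT5i, 426 ± 23 CPM in Pt-resistant and 55.3 ± 6.1 CPM in naive cells. GCLC, the catalytic subunit of the enzyme that limits glutathione synthesis, was at 81.5 ± 2.3 CPM in PRMT5i, 219 ± 27 CPM in Pt-resistant and 67.1 ± 2 CPM in naive cells. Targets that rose with the inhibitor include AKR1B10, an aldo-keto reductase (12.4 ± 3.2 CPM in PRMT5i against 1.37 ± 0.32 CPM in Pt-resistant cells), and CBR3, a carbonyl reductase (9.21 ± 1.4 CPM against 2.3 ± 0.27 CPM). HMOX1, heme oxygenase, a gene that BACH1 represses, was at 19.6 ± 0.62 CPM in PRMT5i, 27 ± 3.6 CPM in Pt-resistant and 4.87 ± 0.54 CPM in naive cells. The PRMT5i libraries lay between the other groups.

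Other substrate adaptors that use CUL3 through a BTB domain showed no common direction. All 18 were tested, and 4 rose and 8 fell with the inhibitor (median -0.09), while 6 rose and 7 fell in Pt-resistant against naive cells (median -0.15). Over all tested genes the shares were 31.9% and 30.5% with the inhibitor, and 29.8% and 29.4% in Pt-resistant against naive cells. ENC1 was at 45.9 ± 1.9 CPM in PRMT5i, 15.4 ± 1.1 CPM in Pt-resistant and 49.1 ± 6.3 CPM in naive cells, with the Pt-resistant cells lowest. SPOP, an adaptor of many nuclear substrates, rose by 1.14 in Pt-resistant against naive cells and fell by 0.42 with the inhibitor.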

How the data were processed

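RNA was sequenced from 9 libraries of OVCAR4 cells. According to the study's methods, libraries were made with a directional kit, reads were checked with FastQC and aligned with STAR, which also counted reads per gene, and the deposited values are raw counts per gene that the authors did not normalise. STAR's gene counting drops reads that map to several places or to more than 1 gene. For the genome build, annotation and strand column, nothing is given in the sources used here.

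Of 61487 genes, 61369 were named from a symbol table, 105 from GENCODE 29 and 13 stayed unnamed (0.000246% of counts). With edgeR 4.0.16 in R 4.3.3, filterByExpr (minimum count 10) left 14630 genes with 99.88% of counts, and TMM scaled the libraries. A quasi-likelihood fit over all 9 libraries, with no covariate, gave 3 comparisons, each adjusted by Benjamini-Hochberg over all tested genes, with a threshold of 0.05. CPM are relative to TMM-scaled totals, and the standard error is the log2 fold change over the root of F. The biological coefficient of variation was 7.66%. The replicate numbers of the labels were not used to pair samples in this fit.

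Members, PRMT5 and, of each pathway list, up to 4 genes with the largest called change in each comparison and at least 5 CPM could be named. NEDD8, WT1, CDH1, EPCAM, PECAM1, CDH5 and the overlapping genes were named after their values were seen. For likeness of profile, the 3 nearest genes of each member were taken, and some genes that this rule takes are not reported here. Members and lists were chosen with earlier results of these data known. Promoter windows come from RefSeq (GRCh38.p14). Alternatives were RLE scaling, library size alone, DESeq2 1.42.0, limma-voom (limma 3.58.1), other filters, fits on the groups compared, a replicate block and each library left out.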

Additional observations from a re-analysis of the deposited data

How the results depend on the processing

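The direction of every called change of the 8 genes held under all alternatives run. The number of the 8 genes higher with the inhibitor was 0, and 0 to 1 when 1 library was left out (KEAP1, without Pt-resistant replicate 1). The number lower in PRMT5i against naive cells was 2, and 1 to 2 with 1 library left out (BACH1 was lost without naive replicate 2), and the number higher was 3, and 3 to 4 (NFE2L2 was gained without naive replicate 2, KEAP1 without naive replicate 1). With the replicate number as a block, 5 genes rose in Pt-resistant cells, 6 fell with the inhibitor, and 3 were higher and 2 lower in PRMT5i against naive cells, as without it. Same-numbered samples of different groups correlated at -0.076 to 0.1, and differently numbered ones at -0.112 to 0.078. These correlations cannot show whether wells were handled together by number, and the sources used here do not say.

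Of the other counts, 596 stayed within 1.5 times and 16 did not. Coactivators and repressors higher in Pt-resistant against naive cells were 2, and 1 with library size alone, DESeq2 or no filter, and 0 to 2 with 1 library left out. In PRMT5i against naive cells they were 1, and 0 without naive replicate 3 and 2 without PRMT5i replicate 1. The remaining cases each left out 1 library and stand beside the results. The cause was not tested. The lowest library levels among the 8 genes were 7.62 CPM for MAFF and 8.24 CPM for OSGIN1. Reads from exons shared with AGPS and TMEM184A, on the opposite strand, cannot be assigned. Those from exons shared with SIRT7 and AC019080.1, on the same strand, are dropped by the counting.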
